A study of Mus musculus with 4 samples.

Results

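Apoe and 9 other genes of lipid efflux (Apoc1, Apoc2, Pltp, Abca1, Abcg1, Npc1, Npc2, Nr1h3 and Apobec1) were followed in alveolar macrophages, phagocytes that live in the air spaces of the mouse lung. They are 10 of the 7280 genes with counts. The 10 were picked by symbol, with their difference between the groups already known. Test results for them are therefore given as description, and nothing is read from how many passed. All libraries were from BALB/c mice. The untreated group had no metastasis. The day 21 group had been given BNL cells intravenously, a hepatocellular carcinoma line of mouse, and the macrophages were taken with metastases in the lung after 21 days. There were 2 libraries in each group. Whether they stem from separate mice or pools is not stated, so a p-value here reflects only how these samples spread, and that spread may be technical. No sham injection is described, and effects of injection and of metastasis cannot be told apart. The method was serial analysis of gene expression (SAGE), which counts 1 short tag per transcript next to a site of the enzyme NlaIII and therefore does not scale with transcript length.

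Macrophages take up cholesterol with lipoproteins, dead cells and, in the lung, surfactant. NPC2 and NPC1 pass it out of the lysosome, the transporters ABCA1 and ABCG1 export it across the cell membrane, and apolipoproteins such as APOE accept it outside the cell. The sterol-sensing nuclear receptor LXR alpha, encoded by Nr1h3, is known to switch on many of these genes, Abca1, Abcg1 and Apoe among them.

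The tags that carried the counts are shown because a SAGE level is the count of these sequences and nothing else. All 50 listed tags of the 10 genes matched a transcript of their own gene in GENCODE M21 (build GRCm38), and the tag of Apoc2 also matched the gene model Gm44805. Capitals mark the NlaIII site, which was put back in front of the 21 deposited bases.
Apoe tag 1: CATGcatcgccagtgggcaaacctg
Apoe tag 2: CATGctgggccagagcacagaggag
Pltp tag 1: CATGtccccccaccctctgctgcag
Abca1 tag 1: CATGtgttatgtaatggggaaccac
Abcg1 tag 1: CATGccacttccagaagtcagaggc
Abcg1 tag 2: CATGgataatgtgctttggaactct
Npc2 tag 1: CATGgctgtttgctgttggattaca
Npc2 tag 2: CATGtcccaccgatccctgtcagct
Nr1h3 tag 1: CATGgcgaaggctcactgactgctt
Apobec1 tag 1: CATGacagagcaagagtattgttac

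Apoe tag 1 lay at chr7:19696449-19696473 on the minus strand, in the coding sequence of exon 3 of 3 of Apoe-205 and at the last NlaIII site before the 3' end. Apoe tag 2 lay upstream in the same exon, at chr7:19696890-19696914. Pltp tag 1 was at chr2:164839714-164839738, in the coding sequence of exon 15 of 15 (minus strand), and Nr1h3 tag 1 at chr2:91184282-91184306, in the 3' UTR of exon 10 of 10 (minus strand). Each was at the last NlaIII site of its transcript. The tag of Abca1 was at chr4:53031219-53031243, in the 3' UTR of exon 50 of 50 (minus strand). Abcg1 tag 1 was at chr17:31114131-31114155, in the coding sequence of exon 15 of 15, and Abcg1 tag 2 at chr17:31115554-31115578, in the 3' UTR of the same exon (plus strand). Npc2 tag 1 was in the 3' UTR at chr12:84756841-84756865 and Npc2 tag 2 in the coding sequence of exon 2 of 4 at chr12:84765321-84765345 (minus strand). Apobec1 tag 1 spanned the junction of exons 6 and 7, within chr6:122580796-122581366 (minus strand). Abcg1 tag 2, Npc2 tag 2 and Apobec1 tag 1 were not at the last NlaIII site of any matched transcript of their gene. The tables carry Abca1 and Abcg1 under the family names ABC1 and WHITE, shared with other transporters, so their tags were identified by RefSeq accession.

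The libraries held 1630776 to 2198563 tag counts, and values below are in CPM, counts scaled to 1000000 with TMM factors of 0.864 to 1.12. No tag has a count of 1, so each tag of a gene listed at 0 may have been read once. Cathepsin D alone took 24.9% and 22.4% of the counts in untreated mice and 36.4% and 35.5% on day 21. Paired values are given as replicate 1, then replicate 2, and ± is the SD of 2 libraries unless named as SE. Of 14 alveolar macrophage markers, 12 were tested and 0 rose or fell by edgeR's quasi-likelihood test (adjusted p under 0.05), with 4 at an unadjusted p under 0.05 (Krt79, Plet1 and Fabp1 lower on day 21, Chil3 higher) and 0 called by DESeq2. The list's median log2 change was -0.59, with 8 of 12 below 0. The groups did not overlap for 5 markers, all lower on day 21 (Siglecf, Krt79, Itgax, Plet1 and Mrc1), and for 0 higher. Of all 2993 genes tested, 16.0% were lower and 15.2% higher in that way. By edgeR, 170 of the 2993 had an unadjusted p under 0.05. Krt79 was at 269 ± 83.9 CPM in untreated and 55.7 ± 49.6 CPM in day 21 libraries, and Plet1 at 121 ± 27.7 and 44.8 ± 21.3 CPM (markers beyond Chil3 and Ear2 were named after their values were seen). Chil3 was at 762 ± 612 CPM in untreated and 1912 ± 1223 CPM in day 21 libraries, and Ear2 at 530.2 ± 422 and 485 ± 257 CPM. The summed level of the 14 was 1705 and 3845 CPM on day 21 and 1230.3 and 2938 CPM in untreated mice, of which Chil3 alone gave 1047 and 2777 CPM and 329 and 1194 CPM. Of 13 markers of monocyte-derived and interstitial macrophages, 5 were tested, and C1qb, C1qc and Ms4a7 rose. That list summed to 401 and 419 CPM on day 21 and 28.0 and 28.2 CPM in untreated mice, with 4 of 13 markers at 0 in each day 21 library and 9 of 13 in each untreated one. Ms4a7 alone gave 242 and 244 CPM of this sum on day 21, and 14.7 and 6.95 CPM in untreated mice. Folr2 and Lyve1 were at 0 in all 4 libraries, and Cx3cr1 had no tag among those analysed here. Neutrophil markers, mostly Camp and some S100a9, summed to 9.32 and 157 CPM in untreated mice and 74.2 and 278 CPM on day 21, with overlapping groups. Of 8 epithelial markers, Epcam had 40.2 ± 18.7 CPM without metastasis and 12.2 ± 10.2 CPM with it, and Scgb1a1 had 5 counts in untreated replicate 2 alone. Cdh1 and Sftpa1 were at 0 in all 4 libraries, and Sftpc, Sftpb, Sftpd and Lamp3 had no tag among those analysed here. Hba-a1, of red cells, was at 91.1 ± 82.3 CPM in untreated and 42.7 ± 27.3 CPM in day 21 libraries, and neither Epcam nor Hba-a1 passed. Of 7 fibroblast and endothelial markers only Dcn had counts (4 and 4 on day 21, 0 and 0 in untreated mice), and 0 of 9 T and B cell markers did.

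Apoe was the member that differed most among those counted in both groups. Its product, apolipoprotein E, is a secreted lipid carrier that macrophages make themselves. Apoe stood at 28.5 and 78.5 CPM in the untreated libraries (58 and 192 counts) and at 1733 and 2716 CPM on day 21 (3036 and 3811 counts). Both day 21 libraries were far above both untreated ones, and the groups did not overlap. The means were 53.5 ± 35.4 and 2224 ± 695 CPM (SD, n = 2 each), a 41.6-fold difference, and the fitted log2 change was 5.37 ± 0.70 (SE). By level, Apoe ranked 1201 and 681 among all genes with counts in the untreated libraries and 59 and 43 on day 21. In bulk samples like these, more cells that express Apoe and more Apoe RNA per cell cannot be told apart. Of the 5 tested monocyte-derived and interstitial macrophage markers, C1qb, C1qc, Ms4a7 and Ly6c2 were higher in each day 21 library, as Apoe was. Among all tested genes, 15.2% were so. Cd14 was not, at 5.89 and 2.45 CPM in untreated mice and 5.71 and 2.85 CPM on day 21. Fcgr1, not tested, had 11 and 7 counts and then 7 and 4 (Ly6c2, Cd14 and Fcgr1 were named after their values were seen). The part of this list in the difference was not tested. Of 12 hepatocyte and hepatocellular carcinoma markers, Afp had 3 counts in untreated replicate 2 and 0 elsewhere, Trf (transferrin, also abundant in macrophages) was at 33987 ± 10491 CPM in untreated and 40887 ± 117 CPM in day 21 libraries, and the other 10, Alb, Ttr, Apoa1 and Apoa2 among them, had no tag among those analysed here.

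The counts of Apoe came almost wholly from tag 1, at the last NlaIII site. Tag 1 held 100% and 91.1% of the counts of the gene in untreated mice, and 95.0% and 96.0% on day 21. The exact Clopper-Pearson 95% intervals, which cover counting error only, were 94.1% to 95.7% and 95.3% to 96.6% on day 21 and 93.8% to 100% and 86.2% to 94.8% in untreated mice. Tag 2 alone gave 69.6 and 84.8 CPM on day 21 against 0 and 5.72 CPM, and tag 3 gave 12.0 and 17.1 CPM against 0 and 1.23 CPM. Every counted Apoe tag with counts in both groups was thus higher in both day 21 libraries, and tag 4 was counted on day 21 only (10 and 9 counts).

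**Figure D1:**
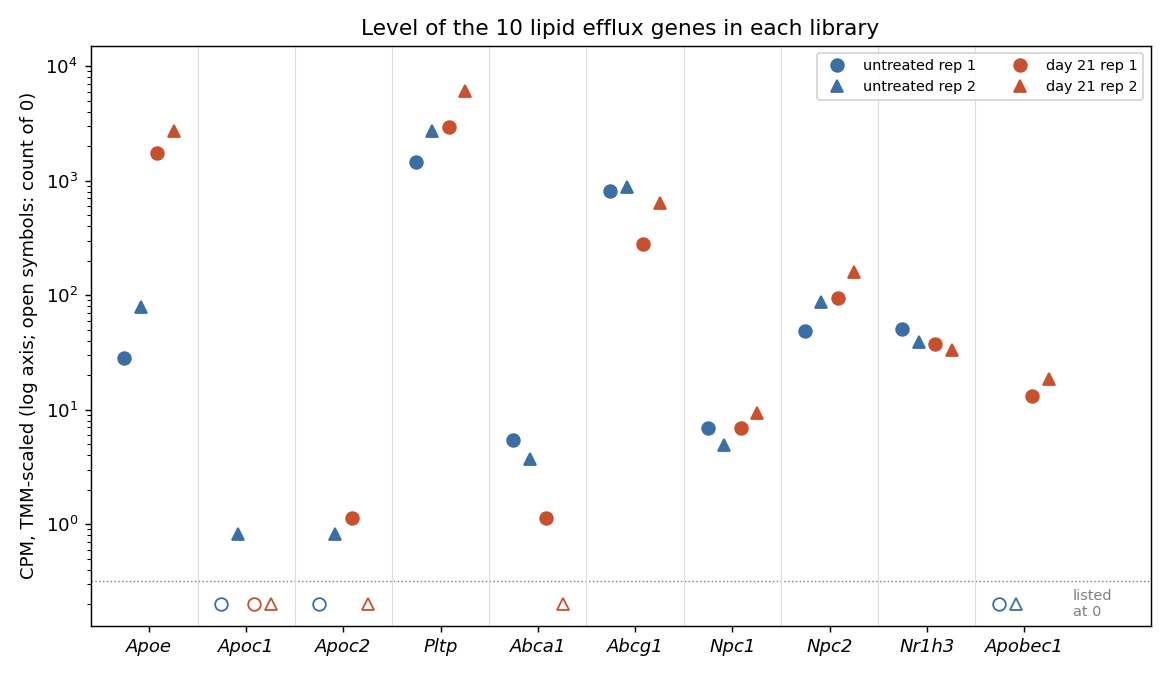
Level of each of the 10 genes in the 4 libraries (y axis, CPM on a log axis; circles replicate 1, triangles replicate 2; blue untreated, orange day 21; open symbols below the dotted line are counts of 0). Apoe moves from 28.5 and 78.5 CPM to 1733 and 2716 CPM, while Abcg1 and Abca1 sit lower on day 21.

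The neighbouring apolipoprotein genes stayed at the edge of detection. Apoc1 and Apoc2, which encode small exchangeable apolipoproteins, lie beside Apoe on chromosome 7 (RefSeq, GRCm38.p6: Apoc2 at 19671579 to 19677941, Apoc1 at 19689480 to 19692659, Apoe at 19696244 to 19701310). Apoc1 had 2 counts in untreated replicate 2 and 0 in the other libraries. Apoc2 was counted at 2 in day 21 replicate 1, 2 in untreated replicate 2 and 0 elsewhere. Each has 1 listed tag, and up to 4.74 counts per library would leave such a tag at 0 or 1 reads with a probability of 5%. Differences between the groups below about that level could not be seen at this depth, and no fold is given. Of 21 other apolipoprotein genes, only Apoo and Apool had counts, at most 6 in a library, and 0 could be tested.

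Pltp, the phospholipid transfer protein that remodels lipoprotein particles, was the most abundant of the 10 genes in every library. It was at 1466 and 2698 CPM in untreated mice and 2940.4 and 6047 CPM on day 21. Both day 21 libraries were the higher ones, but the lower of them exceeded the higher untreated library by little compared with the spread within either group. The means were 2082 ± 871 and 4494 ± 2196 CPM (2.16-fold), with a log2 change of 1.11 ± 0.54 (SE). The libraries numbered 2 were above those numbered 1 in both groups for Apoe, Pltp, Abcg1 and Npc2. Tags other than the main one held 7.65% and 7.47% of the Pltp counts on day 21 but 4.85% and 12.6% in untreated mice (exact 95% intervals 6.94% to 8.41%, 6.92% to 8.05%, 4.11% to 5.69% and 11.8% to 13.4%). The untreated libraries lay on either side of the day 21 ones in this share. Across 551 genes with at least 100 counts in every library and several listed tags, the median share outside the main tag was likewise lower in untreated replicate 1 (2.68%) than in untreated replicate 2 (5.32%), with 3.70% and 5.28% on day 21.

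The 2 exporters were lower in each day 21 library, though Abcg1 did not pass edgeR's test and Abca1 could not be tested. Abcg1, which exports cholesterol to mature high-density lipoprotein and is known for its role in alveolar macrophages, was at 812 and 874 CPM in untreated mice and 279 and 643 CPM on day 21. The untreated libraries were close to each other and both above the day 21 ones, which differed 2.31-fold between themselves. The means were 843 ± 44.2 and 461 ± 258 CPM (1.83-fold lower), with a log2 change of -0.87 ± 0.58 (SE). The size moved with the day 21 library used: the log2 change was -0.33 without day 21 replicate 1 and -1.56 without day 21 replicate 2. Abca1, which loads lipid-poor apolipoproteins, had 11 and 9 counts in untreated mice and 2 and 0 on day 21, from 1 listed tag. The pooled ratio of day 21 to untreated was 0.142. Its exact 95% interval ran from 0.0161 to 0.585 and covers counting error only. Both values take the 0 of day 21 replicate 2 as no reads, though the tag may have been read once there. The gene was below the count filter of the test. Both exporters, and Nr1h3, were lower on day 21, as were 8 of the 12 tested alveolar macrophage markers above (list median log2 change -0.59). Of those markers 0 passed and 4 had positive changes, and the summed level of the list overlapped between the groups. The part of these markers in the differences was not tested.

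The tags of Abcg1 did not differ alike. Tag 1, in the coding part of the last exon, was at 437 and 392 CPM in untreated mice and 171 and 476 CPM on day 21, so the groups overlapped. Tag 2, further along the 3' UTR, was at 297 and 364 CPM in untreated mice and 91.3 and 96.9 CPM on day 21, with no overlap and means that differed 3.51-fold. Tag 4, at the last NlaIII site of Abcg1-201 near the end of the 3' UTR (chr17:31117725-31117749), had 63 and 20 counts against 4 and 2. Tag 2 made up 36.6% and 41.7% of the Abcg1 counts in untreated mice (exact 95% intervals 34.3% to 39.0% and 39.6% to 43.8%). On day 21 its share was 32.7% and 15.1% (28.6% to 37.1% and 12.8% to 17.6%). The share in day 21 replicate 1 lay within counting error of untreated replicate 1, and the share in day 21 replicate 2 was below all others. In all, 19 tags of Abcg1 are listed, of which 14 and 18 were counted in untreated mice and 7 and 13 on day 21.

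**Figure D2:**
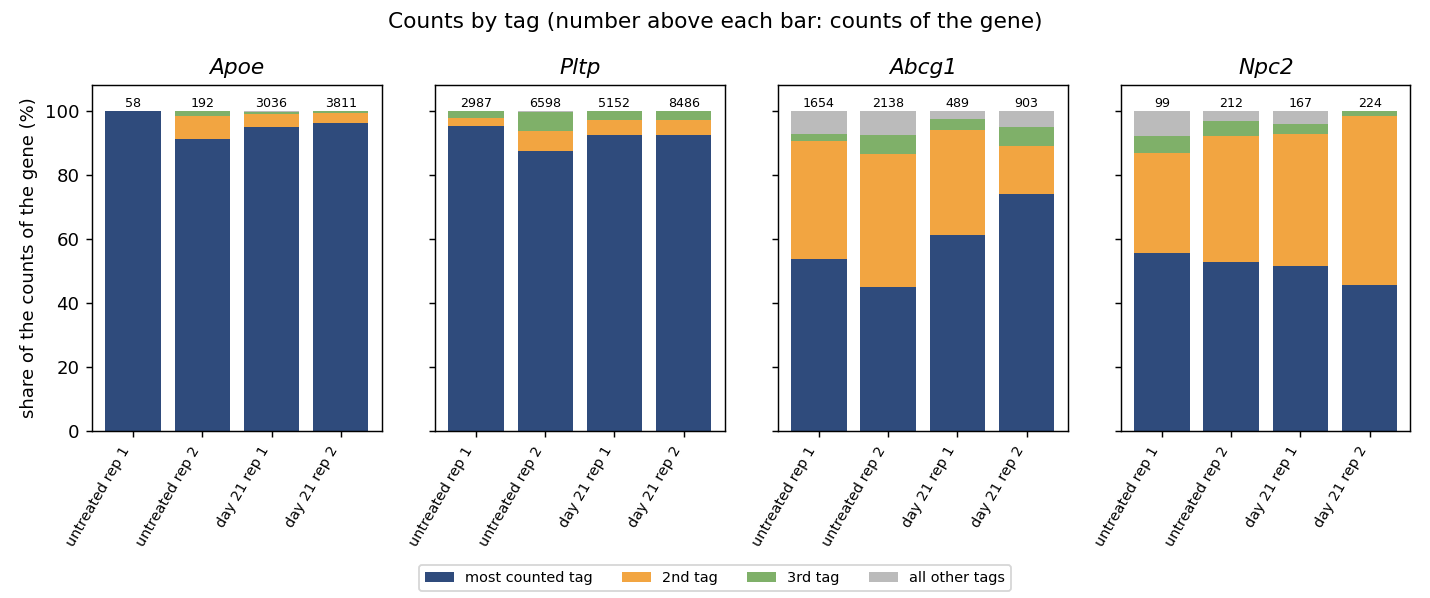
Share of each gene's counts held by its most counted tag, the next 2 tags and all others (y axis, percent), in each library, with the counts of the gene above each bar. Apoe and Pltp rest on 1 tag, while Abcg1 and Npc2 rest on 2, and Abcg1 tag 2 is at 15.1% in day 21 replicate 2.

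Npc2, the soluble sterol-binding protein of the lysosome, was at 48.6 and 86.7 CPM in untreated mice and 95.3 and 159.6 CPM on day 21. The groups did not overlap, although the higher untreated library came close to the lower day 21 one. The means were 67.6 ± 26.9 and 127 ± 45.5 CPM (1.88-fold), with a log2 change of 0.91 ± 0.64 (SE). Both of its main tags were higher in each day 21 library, tag 1 at 49.1 and 72.7 against 27.0 and 45.8 CPM, and tag 2 at 39.4 and 84.1 against 15.2 and 33.9 CPM. Npc1, the membrane protein that receives cholesterol from NPC2, was at 6.87 and 4.91 CPM in untreated mice and 6.85 and 9.26 CPM on day 21, with 12 to 14 counts in every library. Its groups overlapped, and the log2 change of 0.45 ± 0.81 (SE) was within its error.

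Nr1h3, the gene of LXR alpha, was at 51.0 and 39.3 CPM in untreated mice and 37.1 and 33.5 CPM on day 21. Both day 21 libraries were lower, but the 2 untreated libraries differed more from each other than the lower of them did from day 21 replicate 1. The means were 45.1 ± 8.33 and 35.3 ± 2.55 CPM, 1.28-fold lower on day 21, with a log2 change of -0.35 ± 0.67 (SE). Side by side, Apoe was higher on day 21 while Nr1h3, Abca1 and Abcg1 were lower in each day 21 library. Of these only Apoe passed edgeR's test, and Abca1 had too few counts to be tested. Among all tested genes, 16.0% were likewise lower with groups that did not overlap.

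Apobec1 encodes the cytidine deaminase that edits Apob messenger RNA in the gut and other transcripts in macrophages. It had 23 and 26 counts on day 21, or 13.1 and 18.5 CPM, and 0 and 0 in untreated mice. All 3 of its listed tags were counted in both day 21 libraries and in neither untreated one. Up to 6.43 counts per untreated library would leave 3 tags at 0 or 1 reads each with a probability of 5%. Against that bound, the day 21 mean of 15.8 ± 3.82 CPM was at least 5.47-fold higher, or at least 4.54-fold with day 21 replicate 1 alone. This bounds the untreated side only. Of 12 genes of its family or known as editing partners, 0 had enough counts to be tested, and Rbm47, a cofactor of Apobec1, went from 5 and 3 counts in untreated mice to 3 and 8 on day 21. Hnrnpab, which also binds Apobec1, had 8 and 6 counts and then 7 and 0. The groups overlapped for both, and Apob itself had no tag among those analysed here.

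The order of the levels differed mainly in the place of Apoe and Apobec1. In untreated mice Pltp stood first, then Abcg1, and then Npc2, Apoe and Nr1h3, whose ranges over the libraries overlapped from one to the next. Npc1 and Abca1 followed, also overlapping, and Apoc1, Apoc2 and Apobec1 were at or near 0. On day 21 Apoe was second, between Pltp and Abcg1, with no overlap of ranges on either side. Npc2, Nr1h3, Apobec1 and Npc1 followed in that order, each range apart from the next, and Abca1, Apoc2 and Apoc1 were at 0 to 2 counts per library.

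In the fit over all genes, 7 of the 10 members passed the count filter, and Apoc1, Apoc2 and Abca1 did not. Apoe and Apobec1 were past an adjusted p of 0.05 (edgeR quasi-likelihood test), 2 of 7, both higher, against 0.735% of the 2993 genes tested in either direction (0.668% higher and 0.0668% lower). The same 2 of 7 were past it with DESeq2, and 0 of the lower members had an unadjusted p under 0.05. The groups did not overlap for 6 of the 7, 4 higher (Apoe, Pltp, Npc2 and Apobec1) and 2 lower (Abcg1 and Nr1h3), against 31.2% of all tested genes (15.2% higher and 16.0% lower). The members were chosen on this same contrast, so nothing is read from either count. The median log2 change was 0.91 over the 7 tested members and -0.07 over all tested genes. Without untreated replicate 1, 0 of the 7 members passed edgeR's test, as did 0 genes in all (137 at an unadjusted p under 0.05, no other tool run without that library), although the 7 kept their direction. Without untreated replicate 2 the log2 change of Apoe was 6.31.

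**Figure D3:**
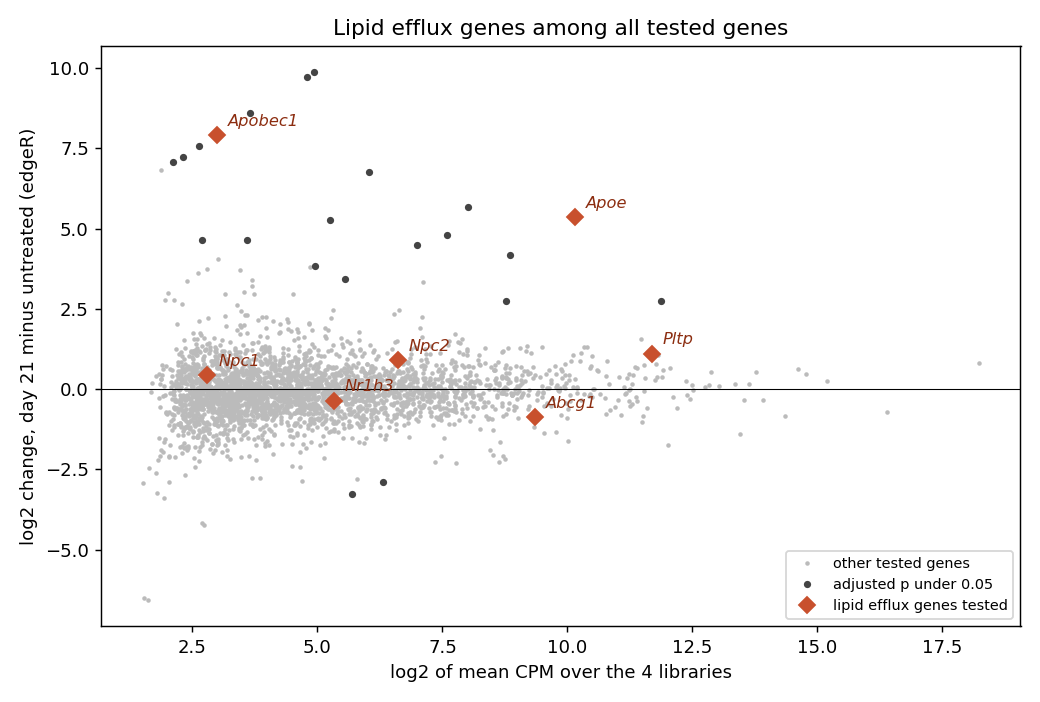
Log2 change (y axis, day 21 minus untreated) against log2 mean CPM (x axis) for 2993 tested genes, with the 7 tested lipid efflux genes as orange diamonds and other genes past the threshold in dark grey. Apoe stands at 5.37, and Pltp, Npc2, Npc1, Nr1h3 and Abcg1 lie among the grey points. The value of Apobec1 depends on the prior count, since its untreated counts are 0.

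Among the other genes of these pathways, receptors for lipoproteins and lipids held the changes that passed. The 9 lists of 200 genes around the members gave 62 tested genes, of which 2 rose and 0 fell by edgeR (3.23%, against 0.735% of all tested genes). These lists were chosen with earlier results of these data known, so nothing is read from this share. DESeq2 also called 2, and 7 had an unadjusted p under 0.05, 1 of them lower. The median log2 change was 0.14 for the 62 genes and -0.07 for all tested genes. Both genes that rose were in the list of 21 receptors and uptake genes, of which 10 were tested. Cxcl16, a transmembrane chemokine that also binds oxidised lipoprotein, was at 16.7 and 10.2 CPM in untreated mice and 373 and 374 CPM on day 21 (log2 change 4.79 ± 0.71 SE, edgeR adjusted p = 0.000207). Trem2, a receptor that binds lipids and APOE, was at 4.91 and 10.6 CPM and then at 33.7 and 137.5 CPM (log2 change 3.44 ± 0.80 SE, edgeR adjusted p = 0.0378). The day 21 libraries differed widely in Trem2 and hardly in Cxcl16, and neither gene overlapped between groups. Trem2 did not pass without day 21 replicate 2, and neither gene passed without untreated replicate 1. The list median was 0.49, with 6 positive and 4 negative changes. Olr1, the oxidised lipoprotein receptor LOX-1, went the other way, at 15.7 and 8.996 CPM against 1.14 and 0 CPM, and did not pass (edgeR adjusted p = 0.0873), though it did with no low-count filter. Lrp1, an APOE receptor, was at 41.2 ± 9.72 and 19.7 ± 0.39 CPM and did not pass (both named after their values were seen).

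**Figure D4:**
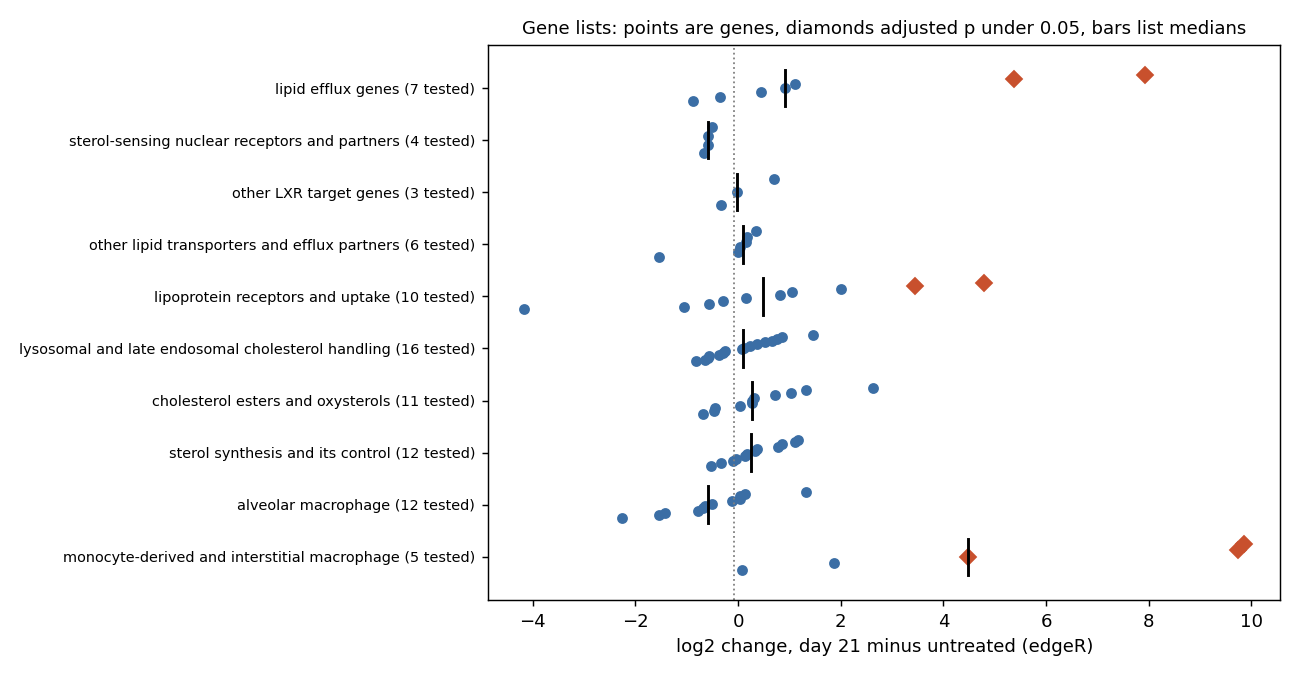
Log2 change (x axis, day 21 minus untreated) of each tested gene of the lists, with list medians as black bars, genes past an adjusted p of 0.05 as orange diamonds and the median of all tested genes as the dotted line. Cxcl16 and Trem2 are the 2 diamonds among lipoprotein receptors, and the other pathway lists have none.

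Storage and lysosomal genes included abundant ones, and none of those tested passed, in edgeR or DESeq2 (3 had an unadjusted p under 0.05). Of 26 genes of cholesterol esters and oxysterols, 11 were tested, of which 8 had log2 changes above 0 (median 0.27). Soat1, which esterifies cholesterol, was at 693 and 605 CPM in untreated mice and 1262 and 886 CPM on day 21. Plin2, a coat protein of lipid droplets, was at 705 and 776 CPM and then at 979 and 810.2 CPM. Both were higher in each day 21 library. Ch25h, which makes 25-hydroxycholesterol, was at 1.96 and 3.68 CPM against 12.6 and 23.5 CPM and did not pass (edgeR adjusted p = 0.225; named after its values were seen). Of 27 genes of lysosomal cholesterol handling, 16 were tested, 9 positive and 7 negative, with a median of 0.10. Lamp1, a major lysosomal membrane protein, was at 11463 ± 5098 and 16503 ± 3117 CPM, and Psap, the precursor of the saposins, at 2196 ± 1198 and 3713 ± 1331 CPM, each with overlapping groups.

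Sterol synthesis, nuclear receptors and the remaining targets of LXR had 0 genes past the threshold by edgeR or DESeq2, and 0 at an unadjusted p under 0.05. Of 28 genes of sterol synthesis and its control, 12 were tested, with a median log2 change of 0.24. Nsdhl, a sterol dehydrogenase, was at 35.5 ± 11.5 and 33.0 ± 3.36 CPM, and Srebf2, the transcription factor of the pathway, at 29.5 ± 11.1 and 28.5 ± 0.02 CPM. Of 18 nuclear receptors and partners, 4 were tested, and all 4 had negative changes (median -0.59) with overlapping groups. Rxrb, a partner receptor of LXR, was at 31.0 ± 13.1 and 20.4 ± 14.7 CPM, and Pparg, a receptor that alveolar macrophages depend on, at 24.5 ± 11.04 and 17.2 ± 4.93 CPM. Of 22 other LXR targets only 3 were tested, with a median of -0.02. Lpl, lipoprotein lipase, was at 50.1 ± 32.03 and 39.6 ± 8.60 CPM, and Smpdl3a, a phosphodiesterase, at 25.9 ± 16.5 and 25.7 ± 8.04 CPM. Of 25 other lipid transporters and efflux partners, 6 were tested, with a median of 0.10, led by Scarb1, the receptor for high-density lipoprotein, at 80.8 ± 34.4 and 102.9 ± 14.7 CPM, and Aup1, a lipid droplet protein, at 49.0 ± 29.0 and 48.8 ± 8.53 CPM.

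The genes whose pattern over the 4 libraries lay nearest to that of Apoe were Cd63, C1qb, Fcgr2b, C1qc and Mmp14. They were taken from 2004 tested genes outside the members with a mean of at least 10 CPM, by the Euclidean distance between log2 CPM centred on each gene's mean. Cd63, a tetraspanin of late endosomes, was nearest at a distance of 0.81, with 8.83 and 11.04 CPM in untreated mice and 408 and 607 CPM on day 21. The distances of C1qb and C1qc, chains of complement C1q, were 1.04 and 1.347, that of Fcgr2b, the inhibitory Fc receptor, was 1.34, and that of Mmp14, a membrane-bound matrix protease, was 1.65. For C1qb, C1qc and Fcgr2b, and for Apobec1 among the members, all listed at 0 in both untreated libraries, the distance depends on the prior count of 2 in log2 CPM. Among the members Apobec1 was nearest to Apoe (1.81), followed by Pltp (4.43) and Npc2 (4.59), and Abcg1 was farthest (6.55). With 4 libraries, any gene that differs by a like amount between the groups lies near Apoe.

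**Figure D5:**
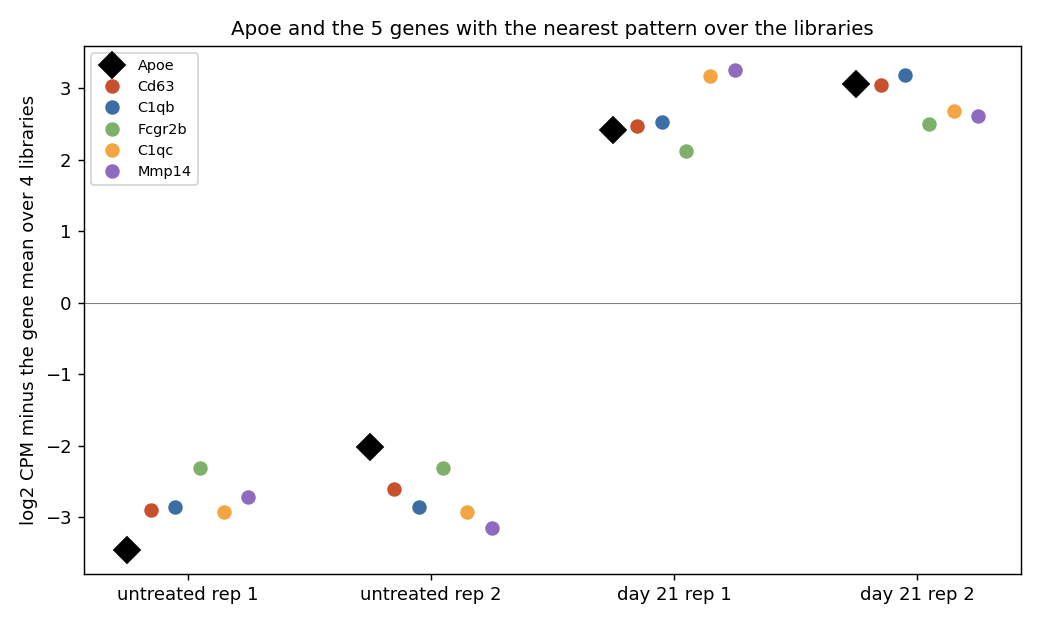
Log2 CPM minus each gene's mean over the 4 libraries (y axis) by library (x axis), for Apoe (black diamonds) and the 5 nearest genes (circles). Apoe runs from -3.46 in untreated replicate 1 to 3.07 in day 21 replicate 2, and all 6 genes are below 0 in both untreated libraries and above 0 in both day 21 libraries.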

How the data were processed

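The authors deposited raw counts per 21-base SAGE tag, with a symbol and a RefSeq accession, per the file headers. Per the submitters' processing notes the authors used mm9. How tags were matched and filtered is not given here. Of 30627 listed tags, 29346 were named by accession, 429 by symbol, 115 by an older symbol and 737 kept the deposited symbol. Counts were summed per gene. Tags after CATG were searched in GENCODE M21 transcripts. Tests were run in edgeR 4.0.16 under R 4.3.3, using TMM, filterByExpr (minimum count 10, minimum total 15), the quasi-likelihood test and Benjamini-Hochberg adjustment over 2993 genes. The SE was obtained as log2 change over root F. The biological coefficient of variation was 0.482. The test was tried on simulated data. DESeq2 1.42.0, other scalings, filters and tag choices, each library left out and a replicate block were the alternatives. Named genes were the members, list genes with an adjusted p under 0.05, the 2 most abundant genes of each described list, and the 5 genes nearest to Apoe. A gene that this rule selects is not reported here. The members and lists were chosen with earlier results of these data known. PCR copies were not told apart.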

Additional observations from a re-analysis of the deposited data

How the results depend on the processing

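The 7 tested members kept their direction in all 96 fits made for them under 14 alternatives (the deposited symbols give no value for Abcg1 and the most counted tag none for Npc1). Apoe passed in 13 of 14 (adjusted p up to 0.0701) and Apobec1 in 10 of 14 (adjusted p up to 0.159), with the other 5 members past the threshold in 0. Against 20 genes higher and 2 lower in the reported edgeR fit, the counts were 9 and 0 with total counts alone, 36 and 5 with no low-count filter, 9 and 0 with the most counted tag of each gene, and 11 and 0 with tags matching 1 gene. Lower genes numbered 0 with upper-quartile scaling and 4 with DESeq2. Members past the threshold numbered 1 (2 in the reported fit) with total counts alone and with the most counted tag, where Apobec1 did not pass. Pathway genes past it numbered 1 (2 in the reported fit) with those settings and with tags matching 1 gene, where Trem2 did not pass, and 3 with no low-count filter, where Olr1, lower on day 21, passed as well. With 1 library left out, 0 to 63 genes were higher, 0 to 18 lower, 0 to 2 members and 0 to 2 pathway genes passed, each 0 without untreated replicate 1, while 63 higher and 18 lower came without untreated replicate 2. Lower genes numbered 8 without day 21 replicate 1 and 1 without day 21 replicate 2, and Apobec1 and Trem2 did not pass without the latter. With 3 libraries, the lone library of a group is assumed to vary like the other group. TMM against total counts alone moved the median log2 change of all genes from -0.07 to -0.29. With the replicate number as a block, 31 genes were higher and 9 lower, and the block kept 2 members (Apoe and Apobec1) and 2 pathway genes. Same-numbered libraries deviated together from their group means (Pearson's r = 0.54 across 2993 genes, which are not independent replicates), but with 2 pairs and no label of a shared source they share only a number. Apoc1, Apoc2 and Abca1 had too few counts for the reported fit. What changed the counts was not tested.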
